A study of Homo sapiens with 4 samples.

Results

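The small subunit of the mitochondrial ribosome is built from 12S ribosomal RNA and proteins encoded in the nucleus, and the genes described here are those named for that subunit. Footprints on their mRNAs, the stretches that ribosomes shield from nuclease, were sequenced (Ribo-seq) from HEK293, a cell line derived from human embryonic kidney. The genes were taken by symbol in GENCODE release 29: every MRPS gene with a plain number (and a letter A, B or C where there is one), plus DAP3, PTCD3, CHCHD1 and AURKAIP1, which carry other names. The rule found 32 transcripts, 1 for each of 32 genes, among the 16292 transcripts of the study, and 32 of 32 had a mean of at least 5 RPKM, the level kept for comparison, which left 9612 genes in all. RPKM is reads scaled by coding length and by the reads of the library, so it can be compared between genes. MRPS17 was not analysed here.

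There were 4 groups with 1 library each: RPL4 mutant cells with erythromycin, RPL4 mutant cells without it, wild type cells with erythromycin and wild type cells without it. The protocol describes stable lines with GFP, normal RPL4 (a large-subunit protein of the cytosolic ribosome that lines its exit tunnel) or RPL4 lacking a loop, infected with lentiviruses for a hairpin RNA that targets RPL4 or for a scrambled control. It also names cycloheximide and lactimidomycin, drugs that hold elongating or initiating ribosomes, and footprints were cut from pooled polysome fractions. Which line, hairpin and ribosome drug each library had, and the dose of erythromycin, are not given in the labels, nor is whether a line was 1 clone. With 1 library per group no difference has a replicate check, and a change in footprints can come from mRNA level or from translation.

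The libraries held 993461 reads in the mutant with erythromycin and 604506 in the mutant without it. In wild type they held 2555613 reads with it and 2965243 without it. These totals were inferred from the RPKM values and may differ from the reads sequenced. RPL4 itself was at 1439 and 1707 RPKM in drug-treated and untreated mutant cells, against 2586 and 2515 RPKM in drug-treated and untreated wild type cells. Over both treatments its log2 difference, mutant minus wild type, was −0.71 (limma, adjusted p = 0.0447). A transgene copy would be read as RPL4, so this checks the labels only in part. Of the markers used for HEK293, VIM, KRT8, KRT18, INA and NEFL were present (at least 43.6 RPKM in each library) and NEFM was at most 0.73 RPKM. The liver gene ALB was at most 0.18 RPKM, and PTPRC, COL1A2 and KRT5 were not analysed here.

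Mitochondrial ribosomes translate the respiratory subunits encoded in mitochondrial DNA, and their own proteins are made in the cytosol and imported. The small subunit selects the mRNA and reads its codons. Its proteins fall into those with a bacterial homologue, which sit on the conserved RNA core, and those found only in mitochondria, which cover regions where the RNA has shrunk. Erythromycin binds the large subunit of bacterial ribosomes, in the tunnel through which the new chain leaves. Symbols and structures do not fully match: MRPS30 and MRPS18A lie in the large subunit of the mitochondrial ribosome, and MRPS36 is a subunit of the oxoglutarate dehydrogenase complex, an enzyme of the citric acid cycle. These 3 genes are therefore described apart.

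Translation of each coding sequence begins at its start codon. The bases around it are shown for some of the most and least read genes and some that the comparisons turn on. MRPS28, which belongs to both kinds, is not shown. The runs below hold 9 bases before the start codon and 21 bases from its first base, from GENCODE release 29 transcripts (GRCh38), and the capitals mark the start codon.
AURKAIP1: ccacagaccATGctcctggggcgcctgact
MRPS21: tccaaggtcATGgcaaaacatctgaagttc
MRPS34: ggacccgccATGgcgcggaagaaggtgcgt
CHCHD1: tggtgcgctATGgcgacacccagcctgcgg
MRPS12: ggtggcaggATGtcctggtctggccttctc
MRPS24: tggcccaagATGgcggcctccgtgtgcagc
DAP3: agtgcaaggATGatgctgaaaggaataaca
MRPS27: cgctccaagATGgctgcctccatagtgcgg
MRPS31: gtctcggcgATGtttcctagagtctcgacg
PTCD3: aaatcaaagATGgcggttgtatctgctgtt

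Vertebrate start codons are read best with a purine (A or G) 3 bases before them and a G directly after them. The purine was there in 32 of 32 genes, against 85.3% of the 9225 genes tested with a start codon and these flanks. The G was there in 20 of 32 (62.5%), against 53.2% of those genes. AURKAIP1, the densest gene in untreated wild type, has a C after its start codon, and MRPS31, among the least read, has a T. Genes with the G had a median of 139 RPKM in untreated wild type (27.4 to 452, 20 genes), and those without it had 177 RPKM (30.9 to 488, 12 genes). The ranges overlapped nearly in full.

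Footprint density differed widely between the 32 genes. The density ran over a 31.4-fold range in drug-treated mutant cells (18.6 to 585 RPKM, median 152), a 40.5-fold range in untreated mutant cells (15.3 to 620.3 RPKM, median 126), a 19.4-fold range in drug-treated wild type cells (26.5 to 514 RPKM, median 153) and a 17.8-fold range in untreated wild type cells (27.4 to 488 RPKM, median 157). AURKAIP1 and MRPS34 stood at or near the top and MRPS31 and PTCD3 at the bottom in all 4 libraries. On the log2 scale the 32 densities correlated with those of untreated wild type at r = 0.93 in drug-treated mutant cells, 0.96 in untreated mutant cells and 0.98 in drug-treated wild type cells. Over all 9612 genes these values were 0.93, 0.94 and 0.97, and the points of a library share its depth.

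**Figure D1:**
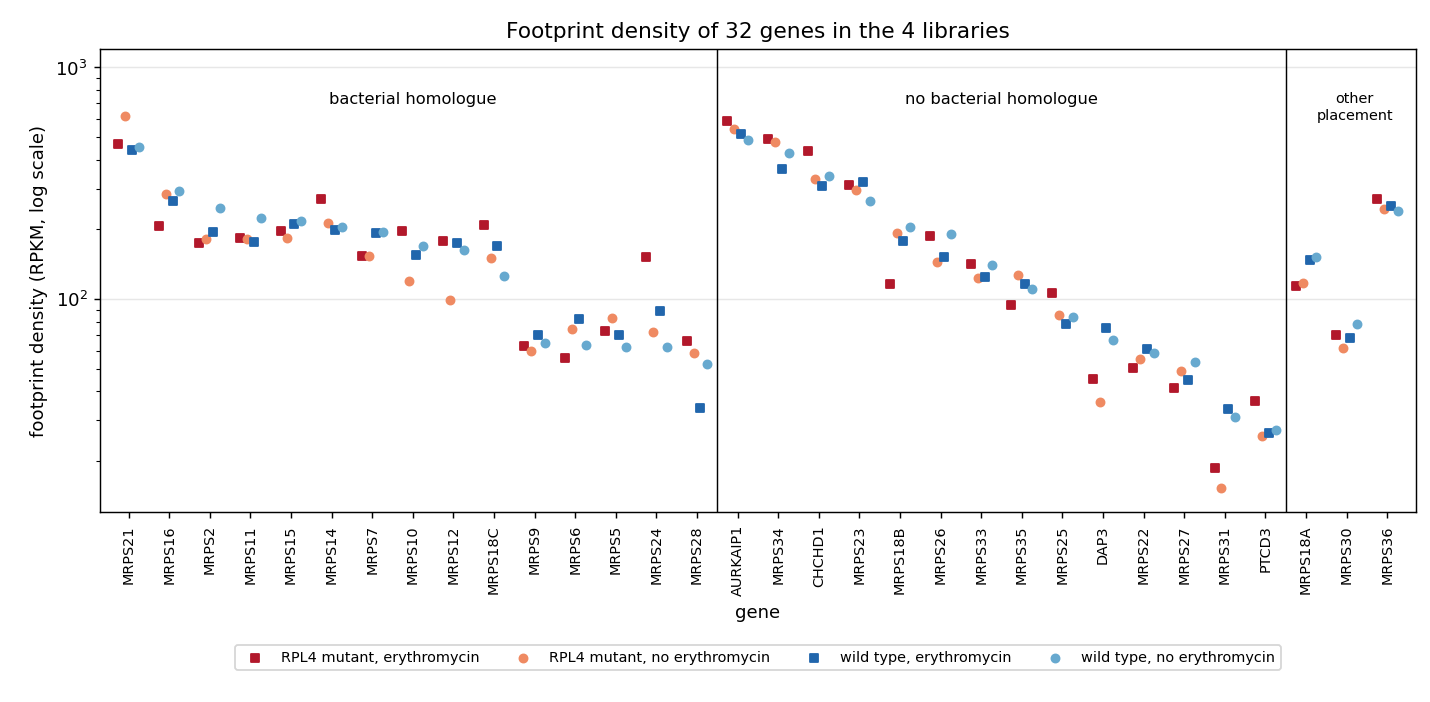
Footprint density (RPKM, log axis) of 32 genes in each of the 4 libraries, with 1 point per gene and library, grouped by placement of the protein and ordered by untreated wild type. The order of genes is much alike in the 4 libraries; DAP3 and MRPS31 lie lower in both mutant libraries and MRPS24 is highest in the mutant with erythromycin.

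Among proteins with a bacterial homologue (15 genes), the median density was 179 RPKM in drug-treated mutant cells, 150.4 in untreated mutant cells, 175 in drug-treated wild type cells and 169 in untreated wild type cells. MRPS21, the homologue of bacterial S21 and the shortest coding sequence at 264 bases, led them. It had 469 and 620.3 RPKM in drug-treated and untreated mutant cells, against 442 and 452 RPKM in drug-treated and untreated wild type cells. MRPS16, homologue of S16, had 207 and 284 RPKM in drug-treated and untreated mutant cells, against 265 and 292 RPKM in drug-treated and untreated wild type cells. The value in the drug-treated mutant was the lowest of the 4 for MRPS16.

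MRPS12 is the homologue of S12, which checks codon pairing in the decoding centre. It had 179 and 99.2 RPKM in drug-treated and untreated mutant cells, against 175 and 163 RPKM in drug-treated and untreated wild type cells, so that the untreated mutant alone was low. MRPS10, homologue of S10 in the head of the subunit, had 196 and 120.1 RPKM in drug-treated and untreated mutant cells, against 154 and 169 RPKM in drug-treated and untreated wild type cells. MRPS14, homologue of S14 in the head, had 270.5 and 214 RPKM in drug-treated and untreated mutant cells, against 199 and 206 RPKM in drug-treated and untreated wild type cells. For MRPS10, as for MRPS12, the untreated mutant was lowest.

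MRPS2, MRPS7, MRPS11 and MRPS15, homologues of S2, S7, S11 and S15, were at 153 to 247 RPKM in every library. MRPS2 had 175 and 182 RPKM in drug-treated and untreated mutant cells, against 195 and 247 RPKM in drug-treated and untreated wild type cells. MRPS7 had 153 and 154 RPKM in drug-treated and untreated mutant cells, against 194 and 195 RPKM in drug-treated and untreated wild type cells. For both genes the mutant libraries lay below the wild type libraries. The mutant was also lower for MRPS15, with 196 and 184 RPKM in drug-treated and untreated mutant cells, against 212 and 218 RPKM in drug-treated and untreated wild type cells. For MRPS11 the untreated wild type stood out as high, with 184 and 181 RPKM in drug-treated and untreated mutant cells, against 176 and 225 RPKM in drug-treated and untreated wild type cells.

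A lower tier held MRPS5, MRPS6, MRPS9, MRPS24 and MRPS28. MRPS5, whose bacterial homologue lines the channel where mRNA enters, had 73.2 and 83.2 RPKM in drug-treated and untreated mutant cells, against 70.2 and 62.3 RPKM in drug-treated and untreated wild type cells. MRPS9, homologue of S9, whose tail reaches the P-site tRNA in bacteria, had 62.5 and 59.7 RPKM in drug-treated and untreated mutant cells, against 70.3 and 64.6 RPKM in drug-treated and untreated wild type cells. MRPS6, homologue of S6, had 55.9 and 74.4 RPKM in drug-treated and untreated mutant cells, against 81.8 and 63.3 RPKM in drug-treated and untreated wild type cells. The MRPS6 values rest on 17 to 79 reads and do not separate the groups.

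Proteins found only in mitochondria (14 genes) held the lowest value in every library and the highest in all but the untreated mutant, with a median of 111 RPKM in drug-treated mutant cells, 126 in untreated mutant cells, 121 in drug-treated wild type cells and 126 in untreated wild type cells. AURKAIP1, also known for binding the mitotic kinase Aurora A, had 585 and 540.4 RPKM in drug-treated and untreated mutant cells, against 514 and 488 RPKM in drug-treated and untreated wild type cells. MRPS34, whose loss destabilises the small subunit, had 489.9 and 478 RPKM in drug-treated and untreated mutant cells, against 365 and 428 RPKM in drug-treated and untreated wild type cells. For both genes the mutant libraries were the higher. CHCHD1, a protein of the twin-cysteine family, had 437 and 329 RPKM in drug-treated and untreated mutant cells, against 308 and 339 RPKM in drug-treated and untreated wild type cells.

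MRPS23, MRPS26, MRPS33, MRPS35 and MRPS25 filled the middle of this group, from 78.0 RPKM (MRPS25 in drug-treated wild type) to 319.6 RPKM (MRPS23 in the same library). MRPS23 had 311 and 297 RPKM in drug-treated and untreated mutant cells, against 319.6 and 266 RPKM in drug-treated and untreated wild type cells. MRPS26 had 187 and 145 RPKM in drug-treated and untreated mutant cells, against 153 and 190.4 RPKM in drug-treated and untreated wild type cells. The responses of MRPS26 to the drug thus pointed opposite ways. MRPS33 had 141 and 124 RPKM in drug-treated and untreated mutant cells, against 124 and 141 RPKM in drug-treated and untreated wild type cells. MRPS35, a protein of the head, had 94.2 and 128 RPKM in drug-treated and untreated mutant cells, against 117 and 110.3 RPKM in drug-treated and untreated wild type cells. MRPS25 had 106 and 85.6 RPKM in drug-treated and untreated mutant cells, against 78.0 and 84.0 RPKM in drug-treated and untreated wild type cells. Both mutant values were the higher, but the untreated mutant value rested on 27 reads. Mutant over wild type, the centred log2 ratio of MRPS25 was 0.38 with the drug and 0.05 without it. Its intervals from read counts, [−0.12, 0.87] and [−0.60, 0.66], both held 0. After centring, 22.7% of all genes tested had both mutant libraries above both wild type libraries.

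At the foot of the range stood the longer genes MRPS22, MRPS27, DAP3, MRPS31 and PTCD3. MRPS22 had 50.2 and 55.0 RPKM in drug-treated and untreated mutant cells, against 61.1 and 58.5 RPKM in drug-treated and untreated wild type cells. MRPS27, an RNA-binding pentatricopeptide repeat protein, had 41.5 and 48.8 RPKM in drug-treated and untreated mutant cells, against 44.7 and 53.7 RPKM in drug-treated and untreated wild type cells. PTCD3, another pentatricopeptide repeat protein, which lies where mRNA enters the subunit, had 36.5 and 25.6 RPKM in drug-treated and untreated mutant cells, against 26.5 and 27.4 RPKM in drug-treated and untreated wild type cells. PTCD3 was highest in the drug-treated mutant.

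**Figure D2:**
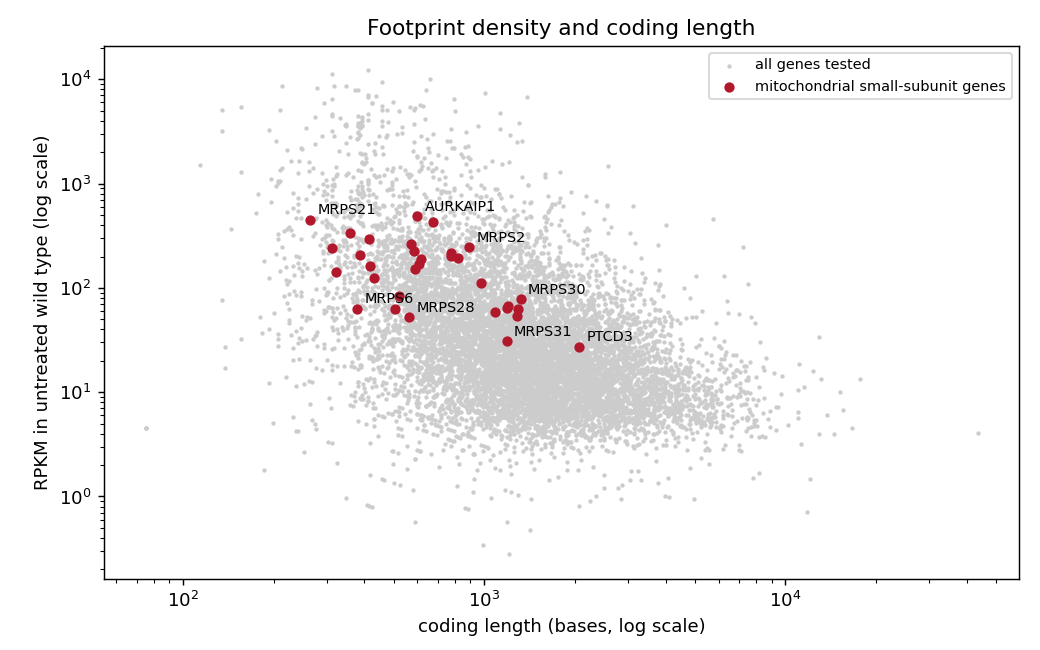
RPKM in untreated wild type against coding length (bases), both on log axes, for 9536 genes tested with a coding length and a value above 0 (grey) and the 32 genes described here (red). Density falls with coding length in both sets, and PTCD3, with the longest coding sequence at 2070 bases, has the lowest density of the 32.

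Shorter genes carried denser footprints. Coding lengths ran from 264 to 2070 bases with a median of 603, against a median of 1311 over the genes tested. Spearman's coefficient between RPKM and coding length over the 32 genes was −0.61 in drug-treated mutant cells, −0.55 in untreated mutant cells, −0.55 in drug-treated wild type cells and −0.48 in untreated wild type cells. The same coefficients over 9544 genes were −0.46, −0.45, −0.47 and −0.47, in the same order of libraries. RPKM divides by coding length, so the points share it on both axes.

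MRPS18A, MRPS18B and MRPS18C encode 3 relatives of bacterial S18 that occupy different places in the mitochondrial ribosome. In the groups above, MRPS18C was counted with the bacterial homologues. MRPS18B was counted with the proteins found only in mitochondria, although it is related to S18. MRPS18C takes the place of S18 in the small subunit, and it had 209 and 150.4 RPKM in drug-treated and untreated mutant cells, against 169.7 and 126 RPKM in drug-treated and untreated wild type cells. MRPS18B lies elsewhere in the small subunit, with 117 and 194 RPKM in drug-treated and untreated mutant cells, against 179 and 204 RPKM in drug-treated and untreated wild type cells. MRPS18A, in the large subunit, had 114 and 118 RPKM in drug-treated and untreated mutant cells, against 147 and 152 RPKM in drug-treated and untreated wild type cells. The 3 relatives thus differed in pattern: MRPS18C was higher with the drug in both genotypes, MRPS18B was low in the drug-treated mutant, and MRPS18A was lower in both mutant libraries. MRPS30, the other large-subunit protein, had 70.2 and 61.4 RPKM in drug-treated and untreated mutant cells, against 67.9 and 77.9 RPKM in drug-treated and untreated wild type cells. MRPS36 of the dehydrogenase was at similar levels throughout, with 271 and 244 RPKM in drug-treated and untreated mutant cells, against 252 and 241 RPKM in drug-treated and untreated wild type cells.

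As a whole the 32 genes, with MRPS18A, MRPS30 and MRPS36 included, took 0.320% to 0.337% of each library. They held 3340 reads or 0.336% of the drug-treated mutant library (95% Wilson interval 0.325% to 0.348%) and 1936 reads or 0.320% of the untreated mutant library (0.306% to 0.335%). In wild type they held 8307 reads or 0.325% with the drug (0.318% to 0.332%) and 9988 reads or 0.337% without it (0.330% to 0.343%). The intervals of the mutant libraries overlapped those of wild type with the same treatment, which does not show that the shares were equal. All intervals cover counting error only, and PCR copies are not independent molecules.

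The proteins of the other subunit and of the cytosolic ribosome gave other values. Genes named MRPL held 0.631% and 0.617% of the drug-treated and untreated mutant libraries, against 0.558% and 0.571% of the drug-treated and untreated wild type libraries. MRPL35 alone had 2452 and 2115 RPKM in drug-treated and untreated mutant cells (1381 and 725 reads), against 489 and 294 RPKM in drug-treated and untreated wild type cells (709 and 495 reads). Mutant over wild type, it was at 2.26 [2.13, 2.40] on the log2 scale with the drug and 2.87 [2.70, 3.04] without it, with 95% counting intervals in brackets, and it passed limma's model of genotype and treatment (2.57, SE 0.183, adjusted p = 3.3e-05). Leaving out MRPL35, a choice made after its values were seen, the MRPL share was lower in the mutant, at 0.492% and 0.497% of the drug-treated and untreated libraries, against 0.530% and 0.554% of the drug-treated and untreated wild type libraries. Cytosolic small-subunit proteins (31 genes) held 4.38% and 4.41% of the drug-treated and untreated mutant libraries, against 5.68% and 5.50% of the drug-treated and untreated wild type libraries. For these last sets the mutant and wild type intervals did not overlap. The difference between the sets was not tested.

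**Figure D3:**
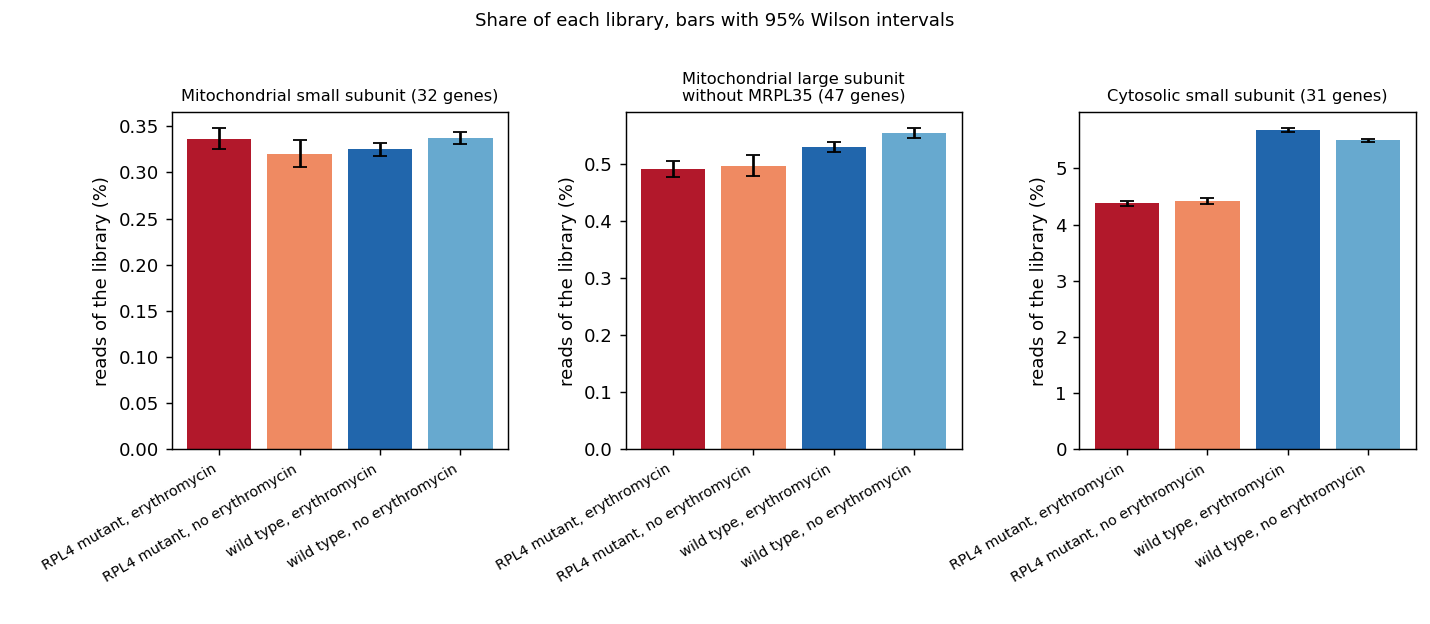
Share of each library's reads (%, bars from 0, with 95% Wilson intervals). The sets are the 32 genes described here, 47 MRPL genes other than MRPL35 and 31 cytosolic small-subunit genes. The first set includes MRPS18A and MRPS30 of the large subunit and MRPS36 of the dehydrogenase. The first set is at 0.320% to 0.337% in the 4 libraries, and the cytosolic set is at 4.38% and 4.41% of the mutant libraries, below the 5.68% and 5.50% of the wild type libraries.

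Mutant cells were set against wild type cells of the same treatment. Each ratio is a difference of log2(RPKM + 1), mutant over wild type, less the median over the genes tested. Brackets hold its 95% interval from read counts. The 32 genes had a median of −0.01 with erythromycin (15 above 0, 17 below) and −0.06 without it (13 above, 19 below), where all genes tested have 0 by construction. At least 2-fold higher were 0 of 32 with the drug (background over all genes tested 7.02%) and 0 without it (5.29%), and at least 2-fold lower were 0 with the drug (2.26%) and 0 without it (3.32%). Counting intervals lay above 0 for 5 genes and below 0 for 7 with erythromycin (backgrounds 16.1% and 16.9%), and above 0 for 2 and below 0 for 5 without it (9.5% and 9.29%). These shares of 32 are near or below the background for higher genes. For lower genes they are 21.9% with the drug and 15.6% without it, above the backgrounds, on only 7 and 5 genes. Whether an interval leaves out 0 depends on the reads of a gene, and the background was not matched for reads. The excess was not tested.

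DAP3 and MRPS31 had the lowest ratios of the 32, with and without erythromycin. DAP3 (chromosome 1, 155689083 to 155738526, + strand, GRCh38) encodes the GTP-binding protein of the head, first described as a mediator of cell death. It had 45.4 and 35.9 RPKM in drug-treated and untreated mutant cells (54 and 26 reads), against 74.9 and 66.5 RPKM in drug-treated and untreated wild type cells (229 and 236 reads). The groups did not overlap, and the log2 ratio was −0.77 [−1.24, −0.35] with the drug and −0.84 [−1.51, −0.28] without it. MRPS31 (chromosome 13, 40729135 to 40771173, − strand) encodes another protein of the head. It had 18.6 and 15.3 RPKM in drug-treated and untreated mutant cells (22 and 11 reads), against 33.6 and 30.9 RPKM in drug-treated and untreated wild type cells (102 and 109 reads). Its groups did not overlap either, and the log2 ratio was −0.88 [−1.65, −0.24] with the drug and −0.94 [−2.03, −0.09] without it. Both genes are named here for their low ratios, so the lack of overlap is no separate result. After centring, both mutant libraries lay below both wild type libraries for 22.4% of all genes tested.

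Neither gene passed the test over both treatments. In an additive limma model of genotype and treatment over all 9612 genes, 0 of the 32 genes passed at an adjusted p of 0.05, against 1.2% of all genes higher and 0.0832% lower in the mutant. At an unadjusted p under 0.05 there were 0 of 32 higher and 2 of 32 lower, against 6.67% and 5.11% of all genes. The 2 genes were MRPS31, at −0.90 (SE 0.274, limma, adjusted p = 0.19), and DAP3, at −0.80 (SE 0.249, limma, adjusted p = 0.207). The model has 1 residual degree of freedom and compares libraries that may differ for other reasons. The 5 HEK293 markers with a mean above 5 RPKM had a median log2 ratio, mutant over wild type, of −0.85 with the drug (5 of 5 below 0) and −0.32 without it (3 of 5 below 0). In the limma model 0 of the 5 passed and 2, VIM and KRT8, had an unadjusted p under 0.05. The part of what moves these markers in the DAP3 and MRPS31 values was not tested. GENCODE lists 4 pseudogenes of MRPS31 and 2 of DAP3, and how reads shared with such copies were counted is not given in the sources used here.

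Other genes had ratios above 0 in 1 or both treatments. MRPS28, homologue of the bacterial S1 protein, had 66.0 and 58.7 RPKM in drug-treated and untreated mutant cells, against 34.0 and 52.6 RPKM in drug-treated and untreated wild type cells. The drug-treated wild type library was its low value, and the log2 ratio was 0.88 [0.24, 1.54] with the drug and 0.18 [−0.60, 0.90] without it. MRPS24, homologue of S3, was at 0.70 [0.27, 1.13] with and 0.24 [−0.50, 0.92] without erythromycin. MRPS34 was at 0.36 [0.16, 0.56] with and 0.18 [−0.05, 0.41] without erythromycin. CHCHD1 was at 0.44 [0.15, 0.73] with and −0.02 [−0.41, 0.35] without erythromycin. AURKAIP1, the densest gene in untreated wild type, was at 0.13 [−0.06, 0.31] with and 0.17 [−0.06, 0.40] without erythromycin. MRPS21 showed the mirror order, at 0.02 [−0.29, 0.33] with and 0.48 [0.15, 0.81] without the drug. Intervals also lay above 0 for MRPS14 with the drug and MRPS5 without it. Below 0, beside DAP3 and MRPS31, lay MRPS7, MRPS16, MRPS18A, MRPS18B and MRPS35 with the drug, and MRPS2, MRPS10 and MRPS12 without it. MRPS18B was at −0.67 [−1.03, −0.34] with and −0.05 [−0.39, 0.27] without the drug. MRPS12 was at −0.04 [−0.45, 0.36] with and −0.68 [−1.35, −0.08] without it, on 25 reads in the untreated mutant.

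Both mutant libraries lay below both wild type libraries, after centring, for 9 genes: MRPS2, MRPS7, MRPS9, MRPS15, MRPS18A, MRPS22, MRPS30, MRPS31 and DAP3. They lay above both for 7: AURKAIP1, MRPS5, MRPS14, MRPS21, MRPS25, MRPS28 and MRPS34. The backgrounds over all genes tested were 22.4% and 22.7%, against 28.1% and 21.9% of the 32. The 2 large-subunit proteins in the set, MRPS18A and MRPS30, were both among the lower genes, at −0.42 [−0.84, −0.03] and −0.02 [−0.38, 0.34] with erythromycin. Without it they were at −0.34 [−0.85, 0.13] and −0.31 [−0.78, 0.12]. MRPS36 of the dehydrogenase was at 0.04 [−0.34, 0.42] with and 0.04 [−0.45, 0.51] without the drug.

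The pentatricopeptide repeat proteins, at the low end of the levels, had intervals that held 0 for mutant over wild type. PTCD3 was at 0.39 [−0.02, 0.81] with and −0.07 [−0.67, 0.48] without erythromycin. MRPS27 was at −0.17 [−0.65, 0.29] with and −0.11 [−0.65, 0.39] without it.

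**Figure D4:**
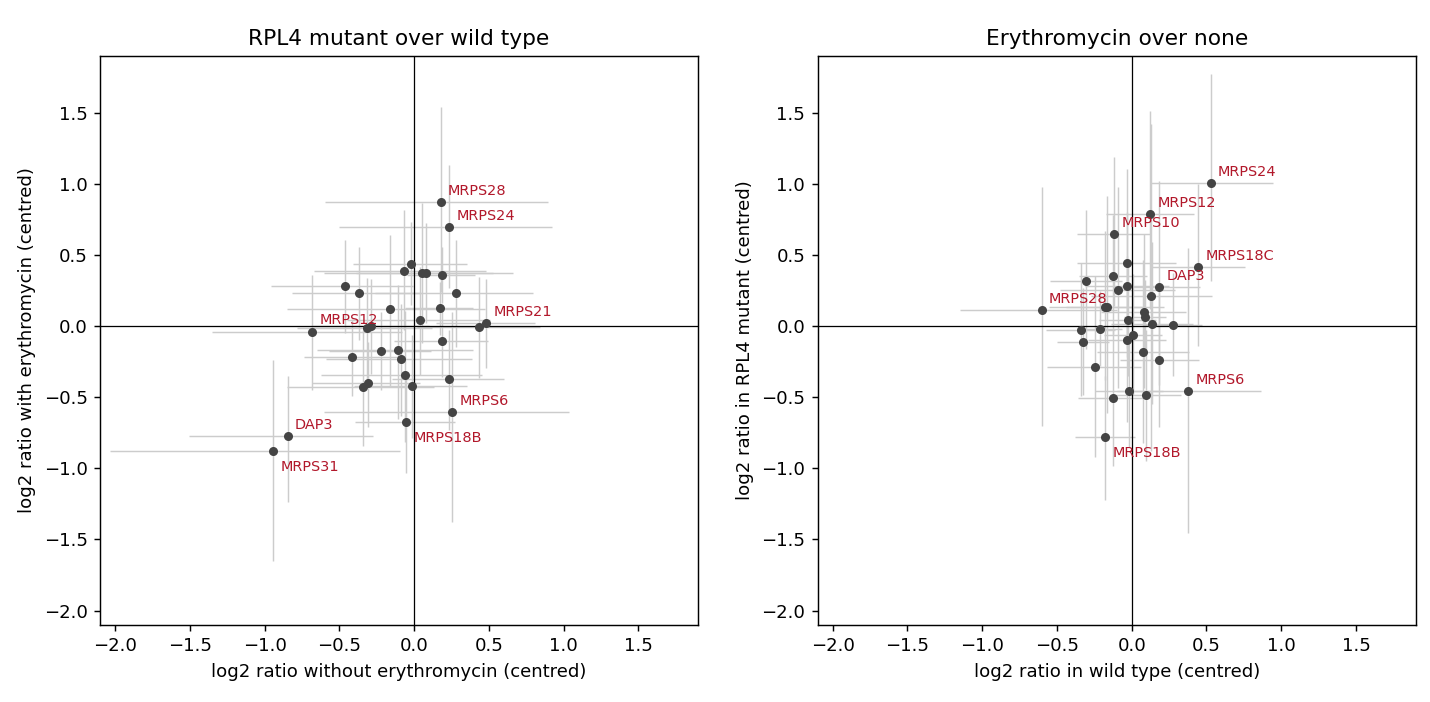
Centred log2 ratios of 32 genes with 95% counting intervals: on the left, RPL4 mutant over wild type with (y axis) and without (x axis) erythromycin; on the right, erythromycin over none in the mutant (y axis) and in wild type (x axis). DAP3 and MRPS31 stand apart at the lower left of the first panel, and MRPS24 at the upper right of the second.

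Cells with erythromycin were set against cells of the same genotype without it. In mutant cells the median log2 ratio of the 32 genes was 0.05 (19 above 0, 13 below), and in wild type cells it was −0.03 (14 above, 18 below). At least 2-fold higher with the drug were 1 of 32 in the mutant (background 6.22%) and 0 of 32 in wild type (1.73%). At least 2-fold lower were 0 in the mutant (3.39%) and 0 in wild type (1.54%). Counting intervals lay above 0 for 3 genes and below 0 for 4 in the mutant (7.21% and 7.69%), and above 0 for 3 and below 0 for 5 in wild type (14.2% and 13.9%).

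MRPS24 was the gene at 2-fold. It encodes the homologue of bacterial S3, which lines the mRNA entry channel (chromosome 7, 43866558 to 43869557, − strand, GRCh38). MRPS24 had 152 and 72.2 RPKM in drug-treated and untreated mutant cells (76 and 22 reads), against 89.3 and 62.2 RPKM in drug-treated and untreated wild type cells (115 and 93 reads). In each genotype the drug-treated library was the higher. The log2 ratio of erythromycin over none was 1.01 [0.32, 1.77] in the mutant and 0.53 [0.13, 0.95] in wild type. Over both genotypes it was 0.77 (SE 0.245, limma, adjusted p = 0.679), so it did not pass. A readthrough gene, URGCP-MRPS24, covers the same coding exons, and its own transcript held 1 and 0 reads in drug-treated and untreated mutant cells and 1 and 0 in drug-treated and untreated wild type cells.

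In the limma model for erythromycin 0 of the 32 genes passed, against 0.125% of all genes higher and 0% lower. At an unadjusted p under 0.05 there was 1 of 32 higher (MRPS24) and 0 lower, against 3.37% and 2.25% of all genes. Both drug-treated libraries lay above both untreated ones for 5 genes, MRPS12, MRPS18C, MRPS23, MRPS24 and MRPS36, and below both for 4, MRPS11, MRPS16, MRPS18B and MRPS27. The backgrounds were 14.0% and 14.3%, against 15.6% and 12.5% of the 32.

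Other genes had intervals that left out 0 in 1 genotype and held it in the other. MRPS16, MRPS21 and MRPS35 were below 0 in the mutant in this way. In wild type MRPS23 was above 0, and MRPS2, MRPS11, MRPS26 and MRPS34 were below it. The rest are given with values. MRPS12 of the decoding centre was at 0.79 [0.12, 1.51] in the mutant and 0.12 [−0.17, 0.42] in wild type. MRPS18C was at 0.42 [−0.14, 1.00] in the mutant and 0.44 [0.13, 0.76] in wild type. MRPS18B was at −0.78 [−1.22, −0.35] in the mutant and −0.18 [−0.38, 0.02] in wild type. The signs matched between genotypes for MRPS12, MRPS18C and MRPS18B. Signs differed between genotypes for MRPS28, at 0.12 [−0.70, 0.98] in the mutant and −0.60 [−1.15, −0.10] in wild type. They also differed for MRPS10, at 0.65 [0.14, 1.19] in the mutant and −0.12 [−0.37, 0.13] in wild type. DAP3 and MRPS31, the low genes of the mutant, were near each other for the drug too. DAP3 was at 0.28 [−0.42, 1.02] in the mutant and 0.18 [−0.08, 0.45] in wild type, and MRPS31 at 0.21 [−0.87, 1.42] in the mutant and 0.13 [−0.27, 0.54] in wild type. All 4 of these intervals held 0. The mutant response minus the wild type response had a median of 0.08 and ran from −0.84 (MRPS6) to 0.77 (MRPS10), with 0 of 32 at least 2-fold higher (background 8.34%) and 0 at least 2-fold lower (5.58%).

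Genes that build the small subunit or run mitochondrial translation passed no test either. Of 9 assembly factors of the small subunit, 0 passed limma's model for either effect in either direction, and 0 had an unadjusted p under 0.05. NSUN4 was not analysed here. The median log2 ratio of the 9, erythromycin over none, was 0.43 in the mutant and −0.27 in wild type, and mutant over wild type it was −0.17 with the drug and −0.28 without it. ERAL1, a GTPase that binds 12S RNA, was at 0.03 in the mutant and 0.00 in wild type for erythromycin over none. RBFA, a maturation factor of the 12S RNA end, had 29 and 7 reads in drug-treated and untreated mutant cells, against 68 and 101 reads in drug-treated and untreated wild type cells. Mutant over wild type, its log2 ratio was 0.07 [−0.61, 0.72] with the drug and −1.45 [−2.88, −0.44] without it. The untreated mutant was thus the low library for RBFA, on 7 reads. TFB1M, which methylates 12S RNA, was at 1.18 [0.45, 2.05] for mutant over wild type with the drug and −0.27 [−1.49, 0.74] without it. TRMT2B, another methyltransferase, was at 1.57 [0.96, 2.47] with the drug and −0.36 [−1.59, 0.63] without it. In drug-treated and untreated mutant cells TFB1M had 28 and 9 reads and TRMT2B 37 and 9. Drug-treated and untreated wild type cells had 29 and 55 reads for TFB1M and 28 and 59 for TRMT2B. For erythromycin over none RBFA was at 1.21 [0.06, 2.72] in the mutant and −0.33 [−0.81, 0.12] in wild type. TRMT2B was at 1.19 [0.19, 2.51] in the mutant and −0.76 [−1.55, −0.17] in wild type, so the signs differed for both genes.

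Of 13 factors of mitochondrial translation and mRNA handling, 0 passed for either effect, and 0 had an unadjusted p under 0.05. The initiation factor MTIF2 was at 0.44 in the mutant and −0.30 in wild type for erythromycin over none, and the initiation factor MTIF3 at 0.22 and 0.62 in mutant and wild type. MTRF1, a release factor, was at 0.17 in the mutant and −1.03 in wild type, on 3 to 40 reads per library. Its ratio of mutant over wild type was −0.03 with the drug and −1.21 without it.

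The genes that mitochondrial ribosomes translate gave larger values. For erythromycin over none, the 7 genes encoded in mitochondrial DNA had a median log2 ratio of 0.11 in the mutant and −0.96 in wild type, beside 0.05 and −0.03 for the 32 nuclear genes in mutant and wild type. For mutant over wild type the 7 genes were at 1.38 with the drug and 0.47 without it, beside −0.01 and −0.06 for the 32. Of the 7 genes 3 passed limma's model as higher in the mutant, and 0 of the 32 did. MT-CO1, a subunit of cytochrome c oxidase, was at 1.38 [1.23, 1.54] with the drug and 0.85 [0.71, 1.00] without it (limma, adjusted p = 0.023). MT-ND5 of complex I was at 0.96 [0.76, 1.18] with the drug and 1.19 [1.00, 1.39] without it (limma, adjusted p = 0.0385). MT-ND6, also of complex I, was at 1.61 [1.41, 1.81] with the drug and 0.69 [0.44, 0.93] without it (limma, adjusted p = 0.0357). For mutant over wild type, 7 of the 7 genes lay above 0 with the drug, and 6 above and 1 below without it. The 1 below was MT-ND4L, at 1.12 [0.72, 1.53] with the drug and −1.04 [−1.67, −0.47] without it. It had 27 reads in the untreated mutant. Genes of mitochondrial DNA beyond these 7 were not analysed here.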

How the data were processed

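Ribosome footprints were sequenced from 4 groups with 1 library each. The deposited files hold 1 RPKM value per Ensembl transcript, as computed by the authors. Per the submitters' processing notes, cutadapt, STAR and the GRCh38 build were used. For the counter, annotation and strand handling, the entry is: not given in the sources used here. Transcripts missing from a file counted as 0. Genes and coding lengths came from GENCODE release 29. The total reads of each library were inferred from the RPKM and coding length of the least read transcripts, taking the commonest value as 1 read. With these totals, RPKM times coding length gave whole reads (within 0.001 reads) for 99.2% of matched transcripts in each library. Intervals come from these reads: Clopper-Pearson for ratios, Wilson for shares.

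Values were analysed as log2(RPKM + 1), which understates changes of low genes, for genes averaging 5 RPKM or more, and ratios were centred on their median. limma 3.58.1 (R 4.3.3) fitted genotype and treatment additively, with a variance trend, libraries centred on untreated wild type, and Benjamini-Hochberg adjustment over 9612 genes. Members, lists and tests were chosen with earlier results of these data known. Every member is described. Ratios, most with intervals, go to members at 2-fold or passing the model and to the 4 highest and 4 lowest in untreated wild type. They also go to the MRPS18 relatives, MRPS30, MRPS36, MRPS12 and DAP3. MRPS10, MRPS15 and MRPS25 are given too, outside this rule. Not every gene has ratios for both genotype and drug. For RPL4 the model's difference is given. Of other lists, genes at 2-fold or passing and the first 2 have ratios. Of mitochondrial DNA only the genes that passed and MT-ND4L do. MRPL35 was named after its values were seen. Other pseudocounts, filters, centrings and models were tried. The smallest read counts were 21, 11, 49 and 71 per gene in drug-treated mutant, untreated mutant, drug-treated wild type and untreated wild type.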

Additional observations from a re-analysis of the deposited data

How the results depend on the processing

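No paired analysis was possible because each group has 1 library and nothing in the labels links libraries. Leaving out a library leaves no replicate in its group and was not run. None of the 32 genes passed either effect of the model under any of 8 alternatives, and the lowest adjusted p for mutant over wild type was 0.0538, with no filter (DAP3, limma; 0.0538 to 0.383 over the alternatives; MRPS31 0.104 to 0.338). For erythromycin MRPS24 ranged over 0.108 to 1.00. Over all genes the model's passes moved by more than 1.5 times: for erythromycin 12 became 31 with a pseudocount of 0.1 RPKM, 40 at 20 RPKM or more, 149 with no filter, 26 with no centring, 24 with libraries centred on the mean of the 4 (chosen after seeing the data), and 0 with no variance trend and with no term for the other factor (limma; 500 and 242 at an unadjusted p under 0.05). For the mutant 123 became 209, 167, 441, 194, 187, 65 and 54 in that order, of which 209, 441, 194, 187, 65 and 54 are beyond 1.5 times. Mutant over wild type with the drug, the median was 0.10 when genes averaged 20 RPKM or more and 0.053 with no centring. The model's median for the mutant was 0.0041 at 20 RPKM or more. Each of these 3 crossed 0. With a pseudocount of 5 RPKM 0 genes reached 2-fold for the drug in the mutant. Without the 10 most-read transcripts the share was 0.357% and 0.346% in drug-treated and untreated mutant cells, against 0.345% and 0.357% in drug-treated and untreated wild type cells. The other alternatives moved each median by less than its pooled counting error. Of the 32 genes, 15 have annotated pseudogenes and 11 share exons with another gene, in 4 of them coding exons (MRPS22, MRPS24, MRPS25 and MRPS28), and their part in these values was not tested.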

Other observations

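Several of these genes share the letters around their start codon. Among the 32 genes, 7 (MRPS10, MRPS18A, MRPS18B, MRPS24, MRPS27, MRPS30 and PTCD3) carry AAGATGGC with the start codon inside it (21.9%), against 3.96% of 9225 genes tested. The coding sequence opens with ATGGCGGC in 9 of the 32 (28.1%), against 4.47% of those genes. The letters were read on the mRNA strand only, and both were chosen after the sequences were seen. The densities of the 7 genes ran from PTCD3 at 27.4 RPKM to MRPS18B at 204 RPKM in untreated wild type. The shares are a description of these sequences and were not tested.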
